A study of Mus musculus with 2 samples.

Results

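*Sox9*-positive modulated cells were examined in cultures of primary vascular smooth muscle cells (VSMCs) from the aorta of wild type mice. They were chosen by their own measured counts. A member had at least 2 *Sox9* UMIs, at most 1 UMI of the smooth muscle myosin gene *Myh11*, and fewer than 3 UMIs of the cell cycle genes *Mki67*, *Top2a* and *Cenpf* summed. A UMI, or unique molecular identifier, marks 1 captured mRNA molecule, and copies of it made by PCR are not counted again. Of 11690 cells that passed the quality filters, 1550 were members, 445 of 4866 in library 1 and 1105 of 6824 in library 2. Since *Sox9*, *Myh11*, *Mki67*, *Top2a* and *Cenpf* chose the cells, their values are given as a description and without a test.

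The study profiled these cells by droplet-based scRNA-seq (10x Genomics) after 5 days in culture, a time over which contractile SMCs (cSMCs) turn in part into modulated SMCs (mSMCs). Both libraries, biological replicates 1 and 2, were of this 1 condition, wild type cells in full medium, and the labels give no strain, sex or age of the animals. Cell preparations of the study combined the aortae of several mice, and the cells of a library therefore share a culture but not necessarily an animal. The libraries held 127949633 and 132561822 UMIs in all, and the kept cells had a median of 22234.5 UMIs in library 1 and 16310 in library 2. Of the barcodes of kept cells, 9 occurred in both libraries, where 4.89 were expected from random draws.

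The libraries stood apart in the sex of the animals. In library 1, *Ddx3y*, a gene of the Y chromosome, was at 96.0 CPM in the members (UMIs scaled to a sum of 1000000) with a UMI in 85.6% of them, and in library 2 it had 0 UMIs in the members. *Xist*, which is transcribed from the inactive X chromosome, had 0.0848 CPM in the members of library 1 and 460 CPM in those of library 2. Whatever differed between the libraries, the sex, the culture and the library itself cannot be told apart. All comparisons below were therefore made within each library (n = 2). Their p-values and standard errors come from fits that leave 1 residual degree of freedom and estimate spread in part across genes. They do not measure how far a single gene differed between the libraries.

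SOX9 is a transcription factor with an HMG box, the DNA-binding domain of the SOX family. It is best known as the regulator that commits mesenchymal cells to cartilage, where it acts together with SOX5 and SOX6 on the genes of type II collagen (*Col2a1*) and aggrecan (*Acan*). In the vessel wall, SOX9 is known from SMCs that lose their contractile proteins and make cartilage-like matrix, as in calcified and atherosclerotic arteries. *Sox9* itself (ENSMUSG00000000567) lies on the plus strand at chr11:112782224-112787760 of GRCm38.

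To show the DNA next to the start sites of genes that set the members apart, the 250 bases before the start site are given for *Ptx3* and *Cavin2*, which were higher in the members, and for *Fgl2*, which was lower (RefSeq, GRCm38.p6, plus strand for all of them). Capitals mark AACAAT, a core recognized by SOX proteins, which was searched on both strands (reverse complement ATTGTT). The *Ptx3* stretch is chr3:66219637-66219886, that of *Cavin2* is chr1:51288876-51289125, and that of *Fgl2* is chr5:21372423-21372672.
Ptx3: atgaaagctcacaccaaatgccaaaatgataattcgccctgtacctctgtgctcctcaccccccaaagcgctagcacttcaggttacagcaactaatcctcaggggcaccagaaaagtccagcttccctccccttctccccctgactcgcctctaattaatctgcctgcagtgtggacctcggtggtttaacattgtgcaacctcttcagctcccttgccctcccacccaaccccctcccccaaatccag
Cavin2: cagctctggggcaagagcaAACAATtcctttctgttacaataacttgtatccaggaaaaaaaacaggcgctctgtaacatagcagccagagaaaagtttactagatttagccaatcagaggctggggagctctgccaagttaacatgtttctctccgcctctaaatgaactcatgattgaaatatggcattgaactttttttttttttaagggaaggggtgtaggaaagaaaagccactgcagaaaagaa
Fgl2: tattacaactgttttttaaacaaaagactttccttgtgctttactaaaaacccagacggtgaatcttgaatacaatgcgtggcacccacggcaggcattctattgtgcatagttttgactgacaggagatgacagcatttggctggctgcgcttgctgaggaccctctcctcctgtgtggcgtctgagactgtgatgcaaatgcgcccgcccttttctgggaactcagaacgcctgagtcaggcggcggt
The motif stood in the *Cavin2* stretch, beginning 231 bases before the start site, and its letters were not found in the windows of *Ptx3* and *Fgl2*. Nor were they found in those of *Acot1*, *Aldh1a7*, *Btc*, *Cdca3*, *Eva1c*, *Gprc5b*, *Itgb8*, *Sema3c* and *Slit2*, which are named below for their rises. Among all 32851 promoters of the table, 9.42% held the motif in this window, and among the 12442 promoters of the genes tested below, 5.17% did. The genes called higher in the members had it in 4.82% of 228 promoters and those called lower in 6.57% of 426 promoters. These shares are a description of letters and not of binding.

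Most members had few *Sox9* UMIs. The median was 3 per member in library 1 and 4 in library 2, and the highest counts were 28 and 31. At the lower edge, 166 members of library 1 (37.3%) and 293 of library 2 (26.5%) had exactly 2 *Sox9* UMIs. Just outside it, 385 and 600 non-cycling cells with at most 1 *Myh11* UMI had exactly 1 *Sox9* UMI. At the other end, 28 members of library 1 (6.29%) and 141 of library 2 (12.8%) had 10 or more. The *Sox9* level of cells with exactly 2 UMIs was 81.6 CPM in library 1 and 114 CPM in library 2, while that of cells with 10 or more was 395 and 556 CPM. *Myh11* was at 0 UMIs in 91.9% and 93.5% of the members.

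The members made up 9.15% of the kept cells in library 1 (exact 95% binomial interval from 8.35 to 9.99%) and 16.2% in library 2 (from 15.3 to 17.1%), a mean of 12.7% ± 4.98 (SD, n = 2). These intervals cover counting error only. Although the cells of library 2 were shallower, they held the larger share of members. With only the *Sox9* counts thinned to 3000 UMIs per cell, the shares were 0.962% and 3.47%. The limits on *Myh11* and the cycle genes were left at full depth there. Among non-cycling cells with at most 1 *Myh11* UMI, members were 17.1% in library 1 and 27.8% in library 2.

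*Sox9* was not confined to the members. Cycling cells with at most 1 *Myh11* UMI had a *Sox9* level of 34.6 CPM in library 1 and 79.4 CPM in library 2, against 40.5 and 100.4 CPM in the non-cycling cells with at most 1 *Myh11* UMI. In cells with at least 10 *Myh11* UMIs, the most contractile ones, the *Sox9* level was 9.16 and 41.7 CPM, so that in both libraries it was lower than in the modulated cells. This order held within but not across libraries, since the contractile cells of library 2 were at the level of the modulated cells of library 1. Endothelial cells (ECs), which should lack *Sox9*, had at least 2 *Sox9* UMIs in 0 of 102 cells in library 1, a count that allows a share of up to 2.94% when 3 counts are taken as the limit (exact 95% interval up to 3.55%), and in 5 of 141 cells (3.55%) in library 2. Their median depths were 14629 and 10223 UMIs, compared with 19620 and 14401 UMIs in the non-cycling cells with at most 1 *Myh11* UMI. Free RNA, read from barcodes with 1 to 100 UMIs, held *Sox9* at 30.4 CPM in library 1 and 71.0 CPM in library 2, and its part in single cells at the edge of 2 UMIs was not tested.

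**Figure D1:**
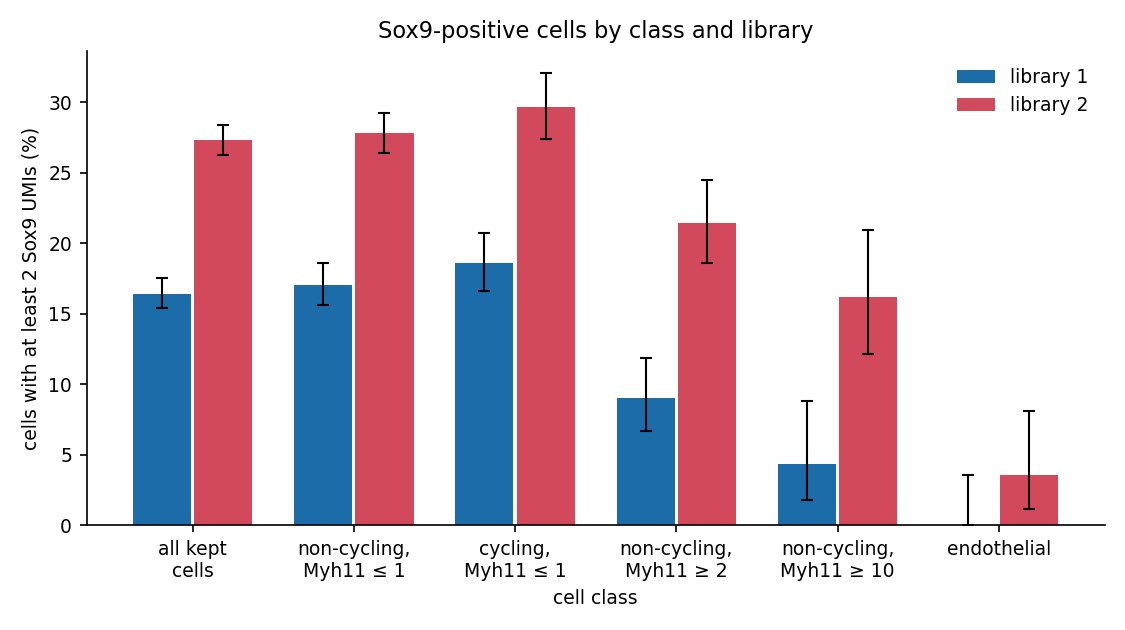
Share of cells with at least 2 *Sox9* UMIs (y axis, percent) in 6 cell classes (x axis) of library 1 (blue) and library 2 (red), with exact 95% binomial intervals as error bars. In both libraries the share was above 15% in cells with at most 1 *Myh11* UMI, lower in cells with 10 or more, and lowest in ECs, and library 2 was above library 1 in each class.

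*Ly6d* and *Efemp1* had been put forward with *Sox9* as markers of these cells, and the values of the first were mixed. *Ly6d*, a GPI-anchored surface protein of the Ly6 family, had a UMI in 6.74% of the members of library 1 and 9.93% of those of library 2 that could be matched to a cell of the same depth with 0 *Sox9* UMIs. In these comparison cells the shares were 6.52% and 7.12%. Its level was 7.81 CPM in the members and 11.3 CPM in the comparison cells of library 1, and 29.6 and 23.2 CPM in library 2, so that the direction differed between the libraries. *Efemp1*, which encodes the extracellular matrix protein fibulin-3, was found in 61.3% and 81.6% of the matched members, against 54.4% and 67.5% of the comparison cells. Its level was 75.1 CPM against 59.5 CPM in library 1 and 209 CPM against 142 CPM in library 2, higher in the members of both libraries. Both genes are given without a test, since they came with the choice of these cells. The cells are therefore named here by *Sox9* and not by *Ly6d*.

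To find what else set the members apart, they were matched 1 to 1 with non-cycling cells of at most 1 *Myh11* UMI and 0 *Sox9* UMIs, within each library and within 10% of their total UMIs. Matches were found for 445 and 1067 members, whose median depths of 23506 and 17080 UMIs lay beside 23420 and 17087 UMIs in the comparison cells. UMIs were summed per library and set, and edgeR's quasi-likelihood test with the library as a block was run on these 4 sums. Of 12622 genes, 211 were higher in the members (1.67%) and 469 were lower (3.72%) at a Benjamini-Hochberg adjusted p under 0.05. The median log2 fold change of all genes tested was near 0 (-0.003). Without the block, 0 genes passed edgeR's test (340 at an unadjusted p under 0.05), and DESeq2 with the block called 22 higher and 91 lower. All fold changes below are members against comparison cells, on the log2 scale with the standard error (SE) of the fit.

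The named gene with the largest rise, among those of at least 10 CPM that were higher in both libraries, was *Ptx3*, the long pentraxin of innate immunity that also binds extracellular matrix. Its level in the members was 226 CPM in library 1 and 154 CPM in library 2, whereas the comparison cells had 102 and 61.1 CPM. Members exceeded the comparison cells within both libraries, and the sets did not overlap across libraries either. The log2 fold change was 1.21 ± 0.06 (SE; edgeR adjusted p = 4.19e-05), and a UMI of *Ptx3* was found in 68.3% and 64.0% of the members against 46.7% and 30.9% of the comparison cells.

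A phosphatase of MAP kinases, *Dusp4*, was at 26.1 and 29.4 CPM in the members and at 12.1 and 13.4 CPM in the comparison cells of libraries 1 and 2. The sets were again apart across both libraries, with a log2 fold change of 1.10 ± 0.09 (edgeR adjusted p = 0.000567). *Slit2*, a secreted guidance ligand of ROBO receptors, was at 162 and 139 CPM against 93.0 and 83.9 CPM, a log2 fold change of 0.74 ± 0.05 (edgeR adjusted p = 0.000226). Of the genes with the largest rises, *Ptx3*, *Dusp4*, *Eva1c* and *Slit2* also passed DESeq2.

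*Sema3c*, a secreted semaphorin, was at 7.64 CPM in the members and 5.27 CPM in the comparison cells of library 1, and at 25.4 and 10.8 CPM in library 2 (log2 fold change 1.01 ± 0.16). Here the members of library 1 lay below the comparison cells of library 2, and the difference held within libraries only. *Btc*, which encodes the EGF receptor ligand betacellulin, changed from 5.10 to 11.9 CPM in library 1 and from 7.45 to 12.6 CPM in library 2 (0.90 ± 0.15). The integrin subunit gene *Itgb8*, whose product activates latent TGF-β, changed from 4.51 to 9.25 CPM and from 8.16 to 13.1 CPM (0.77 ± 0.14).

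*Cavin2*, a component of the coat of caveolae, had the highest mean level of the 12 genes over both libraries, although *Ptx3* was above it in library 1. It was at 186 CPM against 132 CPM in library 1 and at 270 CPM against 124 CPM in library 2. Its log2 fold change was 0.79 ± 0.12, and the rise was larger in library 2. The remaining genes with the largest rises were *Eva1c* (0.96 ± 0.11), the orphan receptor gene *Gprc5b* (0.80 ± 0.14), *Aldh1a7* (0.90 ± 0.12), *Acot1* (0.85 ± 0.15) and the mitosis gene *Cdca3* (0.79 ± 0.10), all past the threshold of edgeR's test. *Aldh1a7* and *Acot1* have close paralogs, between which the counting could have split reads, and their values are uncertain.

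**Figure D2:**
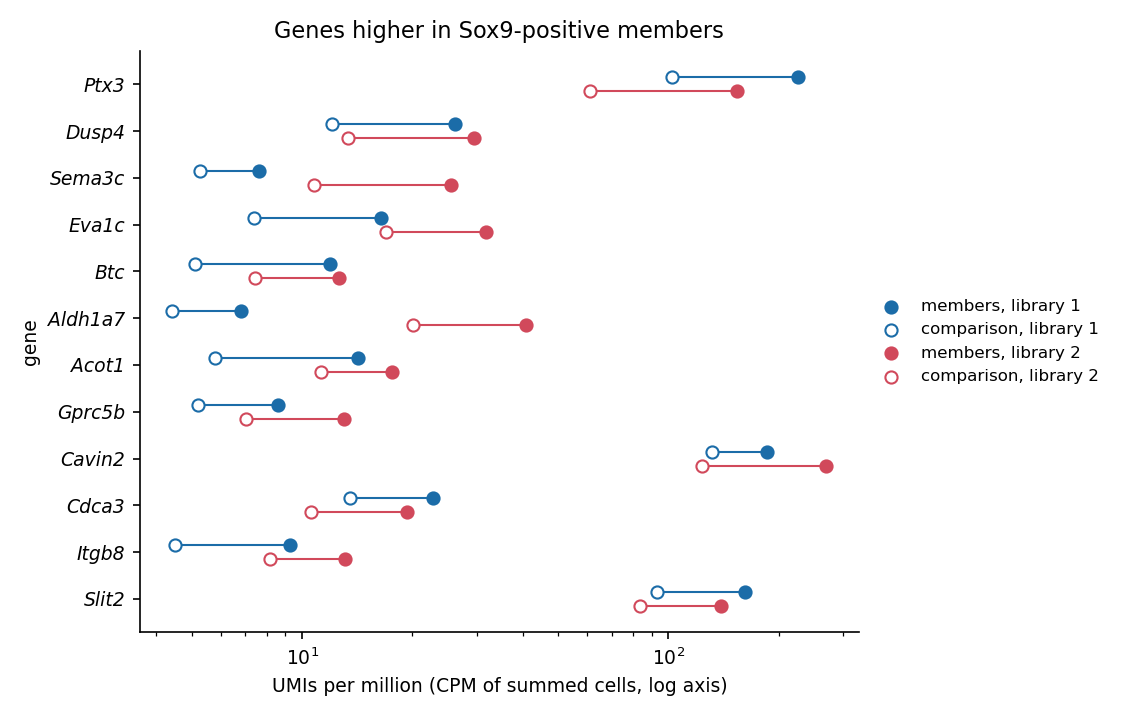
Level (x axis, CPM, log scale) of the 12 genes with the largest rise (y axis) in members (filled points) and matched comparison cells (open points) of library 1 (blue) and library 2 (red), joined within a library. In each gene the filled point lies to the right of the open one of the same library, from 226 against 102 CPM for *Ptx3* in library 1 to 139 against 83.9 CPM for *Slit2* in library 2.

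A few further genes, picked after their values had been seen, are given as examples and stand for no group. N-cadherin (*Cdh2*), an adhesion protein of mesenchymal cells, was at 91.9 and 185 CPM in the members against 67.9 and 106 CPM (0.61 ± 0.08). *Vcan*, which encodes the large proteoglycan versican, was at 65.3 and 59.4 CPM against 40.6 and 39.0 CPM (0.61 ± 0.07). *Cyp26b1*, whose enzyme degrades retinoic acid, was at 182 and 162 CPM against 121 and 111 CPM (0.54 ± 0.05). Each of these 3 genes was higher in the members of both libraries and passed edgeR's test. Other genes of matrix were lower by the same test, among them the collagen genes *Col5a1* (-0.39 ± 0.05) and *Col6a3* (-0.58 ± 0.08) and the thrombospondin gene *Thbs1* (-0.23 ± 0.05).

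Among genes of at least 10 CPM in the comparison cells that were lower in both libraries, the 10 with the largest falls were mostly genes of ECs. They included *Pecam1*, *Cdh5* and *Cldn5*, which encode endothelial junction proteins, and *Nts*, *Gja4*, *Cd93*, *Ednrb*, *Car8* and *Clec14a*. *Lyz2*, a lysozyme gene of macrophages, was the other one. *Pecam1* had 0.0848 and 0.438 CPM in the members against 19.7 and 17.3 CPM in the comparison cells. All 9 EC markers of the list were lower in the members, with a summed level of 10.9 and 10.5 CPM against 106 and 105 CPM, and the most abundant of them was *Egfl7*. Cells with at least 2 UMIs of *Pecam1*, *Cdh5*, *Cldn5* and *Kdr* summed were 1 of 445 and 5 of 1067 among matched members, and 12 of 445 and 34 of 1067 among comparison cells. Without cells that held such EC or macrophage markers, 193 of 12482 genes were higher (1.55%) and 363 were lower (2.91%). In that comparison 0 of the 10 genes passed, 7 of them being too low to be tested. For *Pecam1*, *Cdh5* and *Cldn5* this followed from the filter, since cells were removed by their UMIs of these genes. All 12 genes with the largest rises passed.

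The genes named for their falls, from here to the plot of their levels, are therefore given from the comparison without EC and macrophage cells. This choice was made after the values had been seen. The gene lists further below use the comparison that kept these cells, unless stated otherwise, so that a gene can have another value there. *Des*, which encodes the muscle intermediate filament desmin, was at 7.09 and 1.24 CPM in the members against 18 and 6.36 CPM in the comparison cells. Its log2 fold change was -1.73 ± 0.21 (edgeR adjusted p = 0.0024). The members were lower within both libraries, although the members of library 1 lay above the comparison cells of library 2.

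*Fgl2*, a membrane-bound and secreted fibrinogen-like protein, was at 20.5 CPM in the members and 49.2 CPM in the comparison cells of library 1, and at 52.4 and 134 CPM in library 2. The log2 fold change was -1.36 ± 0.07 (edgeR adjusted p = 3.48e-05), although the members of library 2 were slightly above the comparison cells of library 1. *Notch3*, the Notch receptor typical of SMCs, was at 10.9 and 4.91 CPM against 21.9 and 11.4 CPM (-1.15 ± 0.12). *Myom1*, a muscle sarcomere protein gene, was at 8.99 and 4.41 CPM against 19.8 and 9.46 CPM (-1.16 ± 0.13).

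The other genes named for their falls were *Map3k7cl* (-1.30 ± 0.17), the peptide hormone gene *Cck* (-1.28 ± 0.13), *Gpx3*, a secreted glutathione peroxidase (-1.20 ± 0.23), *Tmem56* (-1.14 ± 0.11) and *Gucy1a1* (-1.26 ± 0.10). *Cck* passed without EC and macrophage cells but not in the comparison that kept them, where it was at 20.1 CPM against 23.0 CPM in library 1 (edgeR adjusted p = 0.151). The other 8 of these 9 genes passed in both comparisons.

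**Figure D3:**
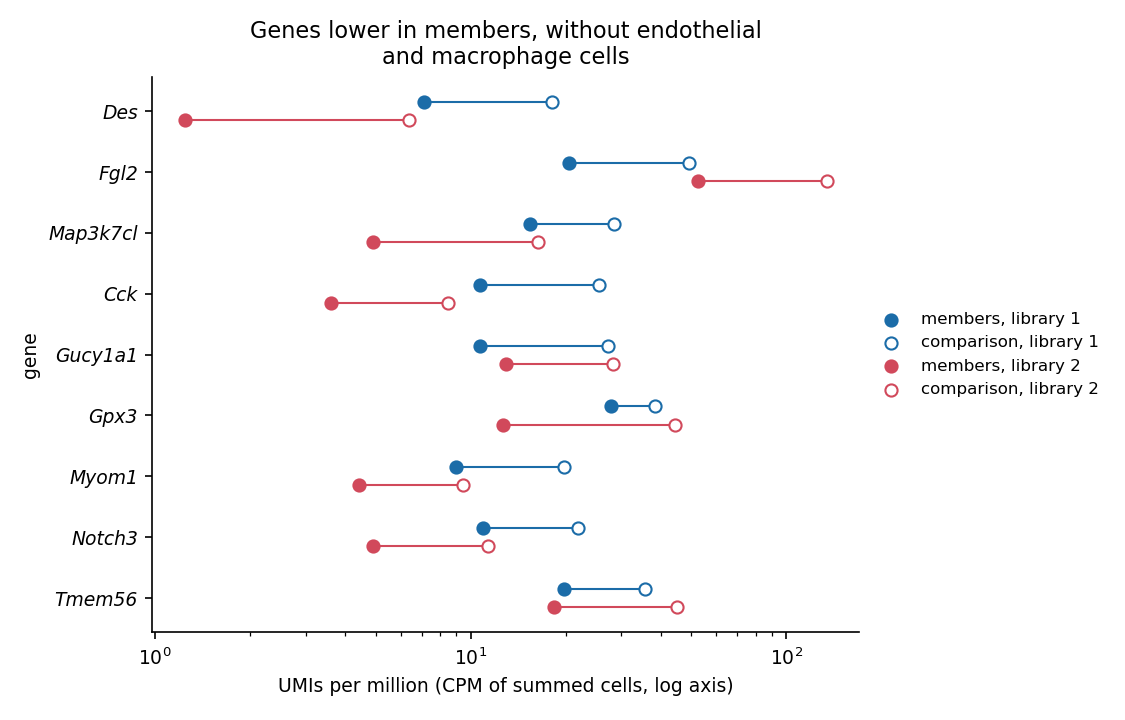
Level (x axis, CPM, log scale) of the 9 named genes with large falls (y axis) in members (filled points) and matched comparison cells (open points), without EC and macrophage cells, in library 1 (blue) and library 2 (red). In each gene the filled point lies to the left of the open one of the same library.

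Of the 369 genes of all lists that were tested, 15 were higher in the members and 64 lower, beside 1.67% and 3.72% of all genes tested. The lists were chosen with earlier results of these data known, so that their counts are a description and no independent support. The lower ones include the EC and macrophage markers, and without EC and macrophage cells 16 of 349 were higher and 44 lower. DESeq2 called 1 of them higher, *Klf4*, and 25 lower, and with at least 3 *Sox9* UMIs in the members 11 were higher and 45 lower by edgeR's test.

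Several genes of the contractile apparatus were lower in the members, although both sets were capped at 1 *Myh11* UMI. Of 20 genes tested, 9 were lower and the other 11 did not pass, with a median log2 fold change of -0.29 over the list against -0.003 over all genes. *Acta2*, the gene of α-smooth muscle actin, was at 3330 and 1817 CPM in the members against 3871 and 2346 CPM, a fall of -0.32 ± 0.04 on the log2 scale. *Tagln*, *Tpm1*, *Tpm2*, *Myl9*, *Lmod1*, *Itga8*, *Des* and *Myocd*, the coactivator of contractile genes, were the others, and *Itga8* had the value -0.87 ± 0.10. *Myh11* itself was at 3.05 and 3.31 CPM in the members against 5.61 and 4.66 CPM. With both sets restricted to cells with 0 *Myh11* UMIs, 7 of the 20 genes were lower, with at least 3 *Sox9* UMIs in the members 5 were, and DESeq2 called 3, *Acta2*, *Itga8* and *Des*.

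The cGMP pathway, which relaxes SMCs, was the subject of the study. Of 12 genes tested, 5 were lower in the members and the other 7 did not pass, and DESeq2 called 3, *Gucy1a1*, *Pde3a* and *Pde5a*. *Gucy1a1* and *Gucy1b1* encode both subunits of the NO-sensitive guanylyl cyclase. With EC and macrophage cells kept, *Gucy1a1* was at 10.6 and 13.2 CPM in the members against 24.7 and 27.4 CPM, -1.15 ± 0.10 on the log2 scale. *Gucy1b1* was at 12.3 and 8.32 CPM against 16.7 and 16.5 CPM, -0.77 ± 0.14. The phosphodiesterase genes *Pde3a* (-0.61 ± 0.09) and *Pde5a* (-0.56 ± 0.06) were lower as well. *Npr1*, the gene of the ANP receptor GC-A, was also lower but had at most 0.438 CPM in the members, and it was too low to be tested without EC and macrophage cells. *Npr2*, which encodes the CNP receptor GC-B, was at 42.3 and 56.3 CPM in the members against 37.1 and 53.8 CPM, with a log2 fold change of 0.092 ± 0.07 (edgeR adjusted p = 0.589). *Npr3* was at 268 and 185 CPM against 213 and 182 CPM and did not pass (edgeR adjusted p = 0.348).

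Of 17 cartilage matrix genes tested, 1 was higher and 2 lower, with a median log2 fold change of 0.14 over the list against -0.003 over all genes. The list summed to 265 CPM in the members against 246 CPM in the comparison cells of library 1, and to 286 against 209 CPM in library 2. *Col2a1* was called higher (log2 fold change 1.96 ± 0.28), but this rested on library 2, where it was at 71.1 CPM against 15.1 CPM. In library 1 it was at 1.78 CPM against 2.21 CPM. A *Col2a1* UMI was found in 2.70% and 12.8% of the matched members, against 2.02% and 5.34% of the comparison cells. In library 2 a single member held 40.7% of the 1536 *Col2a1* UMIs of all members. DESeq2 did not call *Col2a1*. *Col10a1*, a collagen of hypertrophic cartilage (-1.67 ± 0.27), and *Cilp* (-2.44 ± 0.52) were lower, both below 5 CPM in all sums. *Acan* had a UMI in 0.899% and 0.724% of the members. *Comp* and *Col11a1*, the abundant genes of the list, were at 52.1 and 23.8 CPM and at 141 and 117 CPM in the members, and neither passed (edgeR adjusted p = 0.999 and 0.166).

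The partners of SOX9 in cartilage differed in opposite directions, both close to the threshold. *Sox6* was at 1.70 and 5.16 CPM in the members against 1.11 and 1.67 CPM (1.31 ± 0.30), and *Sox5* was at 11.3 and 11.9 CPM against 16.8 and 15.4 CPM (-0.49 ± 0.11). Both passed edgeR's test (adjusted p = 0.0398 and 0.0423) and neither passed DESeq2. Neither passed edgeR's test without cells holding *Tfap2b*, *Dlx5* or *Pax9* (adjusted p = 0.0581 and 0.0672), with *Myh11* at 0 UMIs (0.0677 and 0.0939) or with 0 UMIs of the cycle genes (0.105 and 0.0579). *Sox7*, *Sox17* and *Sox18*, the SOX genes of endothelium, were lower and were too low to be tested without EC and macrophage cells. *Sox4*, the other abundant SOX gene, was at 143 and 172 CPM against 136 and 196 CPM (edgeR adjusted p = 0.534). Of 14 chondrogenic transcription factors tested, 3 were lower, namely *Sox5*, *Pax1* (-1.04 ± 0.21) and *Mef2c* (-0.61 ± 0.07), and *Sox6* was higher. DESeq2 called 1 of these 14 genes, which was lower. By edgeR's test, 1 of 13 was higher and 1 lower with at least 3 *Sox9* UMIs in the members. With *Myh11* at 0 UMIs, 0 of 14 were higher and 1 was lower.

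Of 14 genes of bone and calcification tested, 2 were lower and the other 12 did not pass. *Mgp*, the matrix Gla protein that inhibits calcification of the vessel wall, was at 2443 and 3097 CPM in the members against 3589 and 5136 CPM. Its fall of -0.67 ± 0.04 (edgeR adjusted p = 7.14e-05) also passed DESeq2. *Enpp1*, whose enzyme makes the calcification inhibitor pyrophosphate, was at 9.16 and 8.03 CPM against 14.3 and 12.8 CPM (-0.69 ± 0.12). It did not pass DESeq2, which called 1 of the 14 genes. By edgeR's test, 1 of 13 was lower with at least 3 *Sox9* UMIs in the members, and 1 of 13 with 0 UMIs of *Mki67*, *Top2a* and *Cenpf* in both sets.

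Among 20 genes of modulated and fibroblast-like SMCs, 1 was higher and 3 were lower. *Klf4*, a transcription factor that represses contractile genes, was at 222 and 225 CPM in the members against 169 and 157 CPM (0.43 ± 0.05; edgeR adjusted p = 0.00306). With 0 UMIs of *Mki67*, *Top2a* and *Cenpf* in both sets, its log2 fold change was 0.21 and it did not pass (edgeR adjusted p = 0.297). *Lum* (-0.60 ± 0.13), *Dcn* (-0.40 ± 0.07) and *Thy1* (-0.31 ± 0.06) were lower by edgeR's test. With at least 3 *Sox9* UMIs in the members these 3 genes no longer passed (edgeR adjusted p = 0.055, 0.0567 and 0.0687), and *Dcn* was the one that passed DESeq2. *Lum* and *Dcn* belong to the small leucine-rich proteoglycans, of which 4 of 10 were lower, *Aspn* (-0.51 ± 0.07) and *Ogn* (-0.20 ± 0.04) being the others. Of these 10 genes, 2 were lower by DESeq2, 2 without cells holding *Tfap2b*, *Dlx5* or *Pax9*, and 1 with at least 3 *Sox9* UMIs in the members. *Lum* differed mainly in library 2, at 110 CPM against 204 CPM, while in library 1 it was at 85.6 and 97.2 CPM. Of 23 genes of elastic fibers and fibulins, a list without *Efemp1*, *Fbln7* (-1.02 ± 0.17) and *Loxl1* (-0.44 ± 0.07) were lower and the other 21 did not pass.

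Genes of the signaling lists differed in both directions. Of all genes tested, 1.67% were higher and 3.72% were lower. Of 20 genes of FGF signaling, 4 were higher, the ligand *Fgf7* (0.29 ± 0.06), the receptors *Fgfr1* (0.34 ± 0.06) and *Fgfr2* (0.51 ± 0.08), and the feedback inhibitor *Spry2* (0.54 ± 0.11). The ligand *Fgf18* was lower, at 67.0 and 19.1 CPM against 101 and 47.7 CPM (-0.96 ± 0.14), and so was *Dusp6* (-0.41 ± 0.10). DESeq2 called 1 of the 20 genes, *Fgf18*, and with at least 3 *Sox9* UMIs in the members 2 of 19 were higher and 1 lower. In the BMP and TGF-β list, 3 of 39 genes were higher, *Bmp4* (0.31 ± 0.06), *Fstl1* (0.22 ± 0.04) and the pseudoreceptor gene *Bambi* (0.52 ± 0.12), and 5 were lower, *Tgfb1*, *Tgfb3* (-0.78 ± 0.08), *Fst* (-0.44 ± 0.08), *Bmp1* and *Bmp6*. Of 34 Wnt genes, the ligand *Wnt5a* (0.56 ± 0.09) and the receptor *Fzd2* (0.29 ± 0.06) were higher and the secreted inhibitors *Dkk2* (-1.21 ± 0.11) and *Sfrp4* (-0.70 ± 0.11) lower. In the Notch list, 1 of 14 genes was higher, the mediator *Rbpj* (0.36 ± 0.06), and 5 were lower, *Notch3* and the low endothelial genes *Notch4*, *Jag2*, *Dll4* and *Nrarp*. *Tgfb1*, *Bambi*, *Fzd2*, *Spry2* and *Dusp6* no longer passed without EC and macrophage cells, and *Bmp6*, *Notch4*, *Jag2*, *Dll4* and *Nrarp* were then too low to be tested. In the BMP and TGF-β, Wnt and Notch lists, DESeq2 called *Tgfb3*, *Fst*, *Dkk2* and *Notch3*, all of them lower.

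Of 26 Hox genes, which mark the position of a cell along the body axis, 4 were lower, *Hoxb7* (-0.96 ± 0.17), *Hoxb9* (-0.90 ± 0.21), *Hoxa9* and *Hoxd9*, and the other 22 did not pass. These 4 genes did not pass DESeq2, in which *Hoxb7* came nearest (adjusted p = 0.0521), and with at least 3 *Sox9* UMIs in the members 2 of 25 were lower by edgeR's test. Without EC and macrophage cells, *Hoxb7* and *Hoxb9* stayed lower, *Hoxa9* did not pass (edgeR adjusted p = 0.0821) and *Hoxd9* was too low to be tested. Of 16 transcription factors of neural crest and face, *Twist1* (0.40 ± 0.07) was higher and the other 15 did not pass. Cells with at least 2 UMIs of *Tfap2b*, *Dlx5* and *Pax9* summed were 2 of 445 matched members in library 1 and 90 of 1067 in library 2 (8.43%, exact 95% interval from 6.84 to 10.3%). Of the comparison cells they were 1 of 445 and 50 of 1067 (4.69%, from 3.50 to 6.13%). These intervals cover counting error only, and the difference between members and comparison cells was not tested. Without such cells, all 12 genes with the largest rises remained called, whereas of the Hox genes *Hoxb9* (edgeR adjusted p = 0.0779) and *Hoxa9* (0.0632) did not pass and 1 was lower. Of 8 Ly6 genes, 12 YAP targets and 4 neighbors of *Sox9* on its chromosome, 0 passed edgeR's test or DESeq2, and 3 of these 24 had an unadjusted p under 0.05 in edgeR. With 0 UMIs of *Mki67*, *Top2a* and *Cenpf* in both sets, 1 of the 8 Ly6 genes was higher and 1 lower by edgeR's test. Without the 5% deepest cells, 1 was lower. *Dhh*, at 0.146 CPM or less in the members, was the 1 hedgehog gene of 10 that was lower. Of 18 immediate early genes, *Fosb* (-0.34 ± 0.06) and *Btg2* (-0.29 ± 0.07) were lower. Without EC and macrophage cells 2 of the 18 were higher and 2 lower by edgeR's test, and DESeq2 called 0.

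Markers of further cell types had few UMIs in some lists and many in others. The Schwann, epithelial and mesothelial lists had 0 genes called by edgeR or DESeq2 among the 4 tested, 0 also at an unadjusted p under 0.05, with summed levels in the members of 28.6 and 35.5 CPM, 5.52 and 6.81 CPM, and 6.19 and 6.62 CPM. The macrophage list summed to 10.4 and 9.59 CPM in the members against 13.0 and 88.1 CPM in the comparison cells, and its *Lyz2* and *Cd68* were lower. *Mlana* of the melanocyte list was lower at 0.0848 and 0.973 CPM against 0.170 and 3.34 CPM. The 10 adventitial fibroblast genes summed to 1528 and 1331 CPM in the members against 1491 and 1772 CPM in the comparison cells. Their most abundant gene was *Dcn*, at a mean of 434 CPM in the members, and *Dcn* and *Lum* were lower. The pericyte genes summed to 149 and 175 CPM against 222 and 180 CPM, with *Rgs5* as the most abundant at a mean of 80.7 CPM in the members, and of the 5 tested *Notch3* was lower. Modulated SMCs also express many fibroblast and pericyte genes, and the part of such cells in the results was not tested.

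Some genes of mitosis were higher in the members, although cells with 3 or more UMIs of the cycle genes had been left out. Examples, picked after their values had been seen, are *Cdca3* at 22.8 and 19.4 CPM against 13.5 and 10.6 CPM, and *Spc24* at 45.4 and 30.5 CPM against 31.9 and 19.5 CPM. Other mitosis genes did not pass, among them *Spc25* (-0.24), *Knl1* (-0.52), *Bub1b* (-0.15) and *Aspm* (0.24), which had less than 5 CPM. Of 12 mitosis genes picked after their values had been seen, 8 were higher, and 7 without EC and macrophage cells, counts that follow from the choice of the genes. Of the same 12 genes, 0 passed in the cycling cells described below by edgeR or DESeq2 (1 at an unadjusted p under 0.05 in edgeR). The genes of the rule, *Mki67*, *Top2a* and *Cenpf*, summed to 17.4 and 17.1 CPM in the members and to 14.9 and 14.6 CPM in the comparison cells. Of the cyclins and inhibitors, 1 of 16 was higher, the G1 cyclin gene *Ccnd1*, at 75.2 and 136 CPM against 63.3 and 84.3 CPM (0.46 ± 0.09). With both sets restricted to cells with 0 UMIs of *Mki67*, *Top2a* and *Cenpf*, 168 genes were called higher and 393 lower, and all 12 genes with the largest rises passed. Of the 680 genes called without this restriction, 469 stayed called in the same direction.

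The plot of levels by *Sox9* count gives 6 genes in cells grouped by their *Sox9* UMIs. It is a description without a test, since *Sox9* counts chose the members and most of these genes were chosen for their difference between members and cells without *Sox9* UMIs. The groups were not matched on depth, and the median depth went from 18203 UMIs at 0 to 31323 UMIs at 10 or more *Sox9* UMIs in library 1 and from 12966 to 23872 UMIs in library 2. *Slit2* was at 101, 117, 131, 160 and 196 CPM in cells of library 1 with 0, 1, 2, 3 to 4 and at least 5 *Sox9* UMIs, and at 82.7, 95.8, 120, 133 and 145 CPM in library 2, so that it rose over the whole range in both. *Ptx3* went from 134 to 225 CPM between 0 and 1 *Sox9* UMIs in library 1 and stayed between 212 and 242 CPM beyond, while in library 2 it rose from 69.9 to 164 CPM over all groups. *Gucy1a1* fell from 31.6 to 11.6 CPM in library 1 and from 30.8 to 11 CPM in library 2 between 0 and at least 5 *Sox9* UMIs. *Efemp1* was highest at 2 *Sox9* UMIs in library 1 (81.1 CPM) and at 3 to 4 in library 2 (237 CPM), and was lower again at 5 or more.

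**Figure D4:**
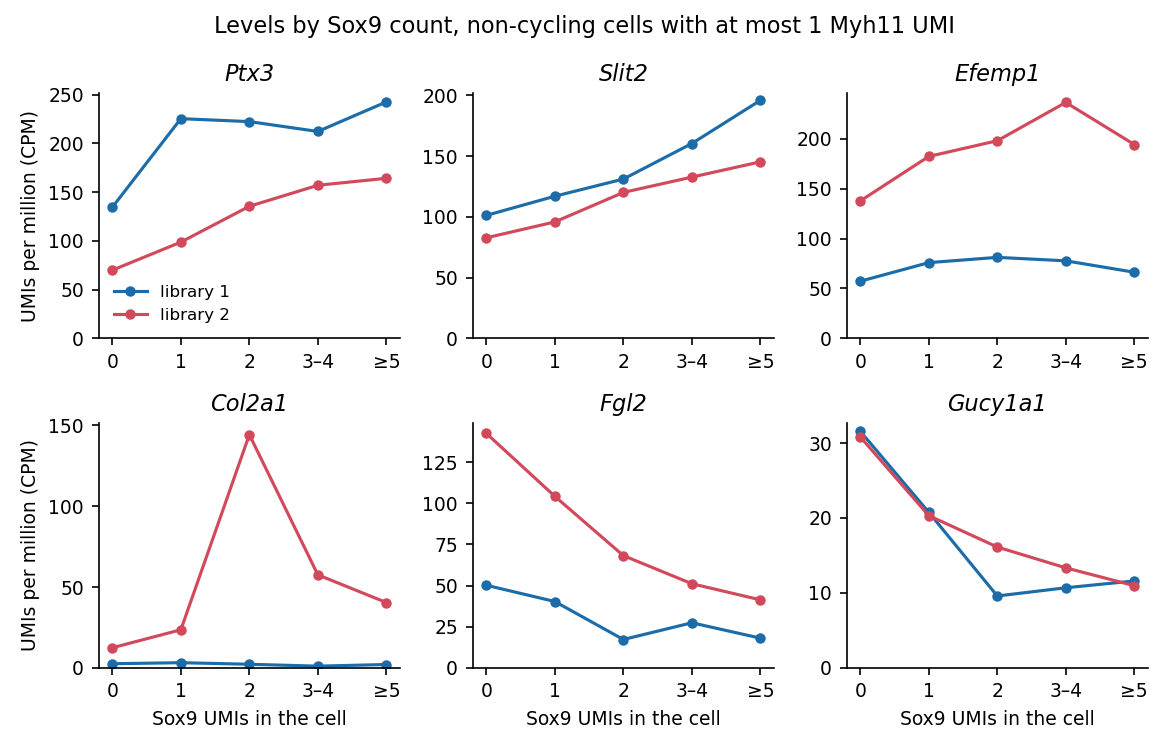
Level (y axis, CPM, from 0) of 6 genes in non-cycling cells with at most 1 *Myh11* UMI, grouped by their *Sox9* UMIs (x axis), in library 1 (blue) and library 2 (red), 1 sum of cells per point. *Slit2* rises and *Gucy1a1* falls over the groups, and *Col2a1* peaks in the group with 2 *Sox9* UMIs of library 2.

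Cells with exactly 1 *Sox9* UMI were compared with other depth-matched cells with 0 *Sox9* UMIs, 377 against 377 in library 1 and 459 against 459 in library 2. Of 11603 genes, 9 were higher (0.0776%) and 126 lower (1.09%) by edgeR's test. All 9 EC markers were among the lower genes, and cells with at least 2 UMIs of the EC genes were 1 of 377 and 0 of 459 among cells with 1 *Sox9* UMI against 13 of 377 and 26 of 459 among their comparison cells. Without EC and macrophage cells, 18 of 11443 genes were higher and 76 lower. Of the 12 genes with the largest rises in the members, 1 was called here, *Ptx3*, with a log2 fold change of 0.62 (adjusted p = 0.00857). Of the 9 genes named for their falls without EC and macrophage cells, 3 were called, *Map3k7cl* (-0.76), *Gucy1a1* (-0.65) and *Myom1* (-1.04). When EC and macrophage cells were left out of this comparison too, *Cdca3* (0.72) passed besides *Ptx3*, *Fgl2* (-0.33) was lower as well, and *Cck* was higher (1.05; edgeR adjusted p = 0.0312), opposite to its direction in the members. These comparisons share no cell with the members and their comparison cells, but they come from the same libraries.

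Cycling cells offered a further set of cells. There, 267 and 429 cells with at least 2 *Sox9* UMIs were matched to cells with 0 *Sox9* UMIs, all with at most 1 *Myh11* UMI. Of 11899 genes, 201 were higher (1.69%) and 394 lower (3.31%) by edgeR's test. Of the 12 genes with the largest rises in the members, 10 were also higher in cycling *Sox9*-positive cells. *Ptx3* was at 239 and 204 CPM against 110 and 91.3 CPM there, a log2 fold change of 1.13 (edgeR adjusted p = 1.41e-12). *Cdca3* (0.017) and *Itgb8* (0.21) did not pass. Of the 9 genes named for their falls, 8 were lower in cycling cells as well, and *Cck* did not pass (0.22; edgeR adjusted p = 0.723). *Gucy1b1* (-1.03), *Fgf18* (-0.97) and *Mgp* (-0.58) were also lower there, and *Klf4* (0.53) and *Vcan* (0.82) higher. *Cyp26b1* (-0.19) and the aggrecanase gene *Adamts5* (0.12), both higher in the members, did not pass in the cycling cells either. Without EC and macrophage cells, 114 of 11812 genes were higher and 253 lower in the cycling cells, and 9 of the 12 and 7 of the 9 genes were called, *Gprc5b* (edgeR adjusted p = 0.058) and *Notch3* (0.168) no longer passing. The difference between cycling and non-cycling cells was not tested.

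**Figure D5:**
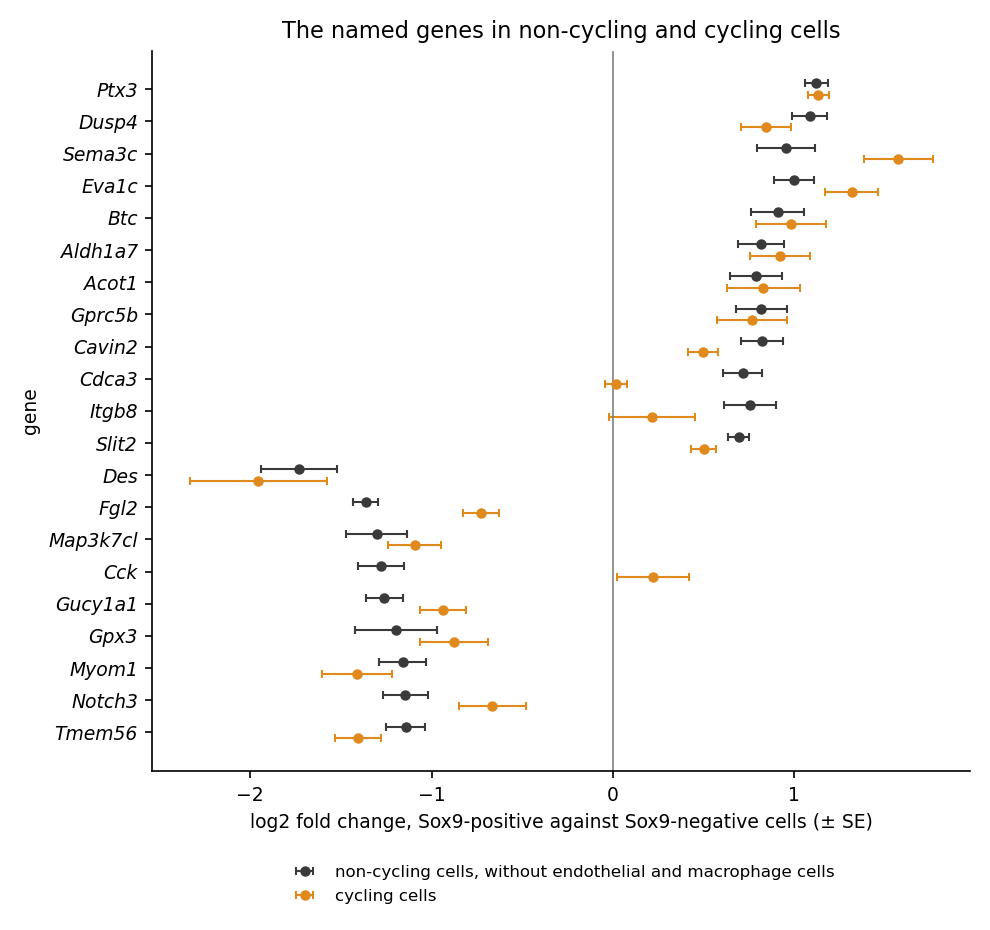
Log2 fold change (x axis, points with SE bars) of the 12 genes with the largest rises and the 9 named for their falls (y axis) between *Sox9*-positive and *Sox9*-negative cells, in non-cycling cells without EC and macrophage cells (dark) and in cycling cells (orange). *Cdca3*, *Itgb8* and *Cck* lie near 0 in cycling cells, and the other 18 genes lie on the same side of 0 in both.

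The members were not uniform. Variation among members was ranked by the variance over the mean of depth-scaled UMIs, which was not corrected for a gene's level. The top genes included *Mgp*, *Acta2*, *Tagln*, *Timp3*, *Sfrp2*, *Spp1* (osteopontin) and *Igfbp5*. Abundant genes such as *Malat1*, *Tm4sf1*, *Cryab*, *Fth1*, *Tmsb4x*, *Ftl1* and *Actb* were among them too. *Sfrp2*, a secreted Wnt inhibitor, had a UMI in 304 of 445 members in library 1 and 751 of 1105 in library 2, and *Spp1* in 170 and 297. Cells with at least 2 UMIs each of *Lum* and *Pdgfra*, a fibroblast-like pair, were 22.9% of the matched members in library 1 and 18.8% in library 2, while the comparison cells had 24.9% and 27.3%. Cells with at least 2 UMIs each of *Gpnmb* and *Apoe* were 5.84% and 33.7% of the matched members and 10.3% and 45.7% of the comparison cells, so that the libraries differed far more than the sets. *Il1rn* was found in 24.0% of all members of library 1 and 4.89% of those of library 2, against 20.9% and 3.94% of the comparison cells. For *Fgf18* the shares were 46.3% and 14.8% of all members, against 53.3% and 28.6% of the comparison cells.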

How the data were processed

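Per the labels and file headers, the authors aligned 10x Genomics 3' v3 reads to mm10 with Cell Ranger (3.0.2 in the submitters' processing notes, 3.0.2 and 3.1.0 in the headers of libraries 1 and 2) and deposited whole-number UMI counts for 31053 genes and all barcodes, without normalization. Kept cells had 300 or more genes and 3000 or more UMIs, of which less than 20% were mitochondrial, and doublets were not removed. The members, gene lists and tests were chosen with earlier results of these data known. Counts of the matched cells were summed to 4 sums per comparison and tested in edgeR 4.0.16 (R 4.3.3) by quasi-likelihood with TMM factors, filterByExpr and Benjamini-Hochberg adjustment at 0.05, without the 5 genes of the rule. The SE was derived from the F statistic and the fold change. The library was a block, since both sets come from the same culture, and deviations from the set means were shared by sums of 1 library, with a correlation across genes of 0.806 (members), 0.735 (1 *Sox9* UMI) and 0.768 (cycling cells). The fit leaves 1 residual degree of freedom. DESeq2 1.42.0 was an alternative. CPM are counts scaled to a sum of 1000000, and 3' UMI counts were not corrected for gene length. Named are the 12 higher and 10 lower genes with the largest fold change past the threshold, in the same direction in both libraries and of at least 10 CPM in the higher set, without Gm and Rik genes, and members of the lists. Of the 10 lower genes found without EC and macrophage cells, 1 is not reported here. Coordinates are from GENCODE M21 (GRCm38), which held 30934 of the 31053 identifiers. RefSeq promoters were matched by symbol for 162 of the 211 higher and 334 of the 469 lower genes.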

Additional observations from a re-analysis of the deposited data

Results flagged for a closer look

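Among barcodes with at least 1000 but fewer than 3000 UMIs, too small to be kept as cells, 2 of 1316 in library 1 and 19 of 1293 in library 2 had at least 2 *Sox9* UMIs. Free RNA also held *Sox9*, and its part in these barcodes was not tested. The mitosis gene *Birc5*, higher in the members (0.51 on the log2 scale), was near 0 in cycling *Sox9*-positive cells (-0.065), with a negative sign in both libraries. The difference between these comparisons was not tested.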

How the results depend on the processing

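The block decided the calls. Without the replicate block, 0 genes passed edgeR's test in the members (340 at an unadjusted p under 0.05), 0 in cells with 1 *Sox9* UMI (192) and 0 in cycling cells (202). DESeq2 called 113, 41 and 59 genes in these comparisons, against 680, 135 and 595. In the members, 1156 genes were called with no filter on low counts, 1363 against all comparison cells unmatched, and 438 with *Myh11* at 0 UMIs, and in cells with 1 *Sox9* UMI, 38 with no filter. Without EC and macrophage cells, an alternative added after seeing the data for these cells, 367 genes were called in cycling cells. Of the 680 genes, 484 stayed called without EC and macrophage cells, 460 with at least 3 *Sox9* UMIs, and 653 under 10% mitochondrial UMIs. The mean share of members was 21.02% with at least 1 *Sox9* UMI and 2.22% after thinning of the *Sox9* counts only. It was 22.4% of non-cycling cells with at most 1 *Myh11* UMI, and the share of kept cells ranged from 9.15 to 16.2% in single libraries. In single libraries the log2 fold change of *Col2a1* ranged from -0.31 to 2.24. Without EC and macrophage cells *Egfl7* turned to 0.031, and to 0.11 with 0 cycle UMIs besides. The cause of these changes was not tested. Of the 119 called or named genes followed, 117 kept their status, called or not, with DESeq2 size factors in edgeR and 43 with DESeq2. *Cck* was not called in the main comparison, so that for this gene staying uncalled counted as kept.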
